A study of Mus musculus with 9 samples.

Results

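The genes described here code for matrix metalloproteinases (Mmp), for secreted proteases of the ADAMTS family and their protease-free ADAMTS-like relatives (Adamts, Adamtsl), and for tissue inhibitors of metalloproteinases (Timp). They were taken by gene name from a table of read counts for 24186 genes, which gave 50 members, namely 23 Mmp, 18 Adamts, 5 Adamtsl and 4 Timp genes. RNA was sequenced from stromal cells of the bone marrow, conditionally immortalised with the irtTA-GBD*-TAg transgene carried by the donor mice, which were adult C57Bl/6 animals. The 9 libraries formed 3 groups of 3. The first held progenitors with adipogenic potential after 3 days with interferon-γ (IFNγ) at 10 ng/ml, the next held progenitors with osteogenic potential, and the last held progenitors with adipogenic potential that were not treated. Cells of all groups carried the transgene, had been grown with dexamethasone and doxycycline to switch on large T antigen, and were kept without both drugs for 3 days before RNA was taken. Clones were derived from the cultures by limiting dilution or by sorting of single cells, and whether a library stands for 1 clone or 1 animal is not given. The libraries are called by their group and the number in their label, 4, 5 or 6.

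Matrix metalloproteinases are zinc-dependent enzymes that are made as inactive proenzymes and cut collagens, other matrix proteins and cell surface proteins once activated. ADAMTS proteases are secreted, carry thrombospondin-type repeats and include enzymes that cut proteoglycans or trim procollagens, while the ADAMTS-like proteins share the repeats but have no protease domain. TIMP proteins bind the active site of these enzymes and block them. In bone marrow and bone, this system reshapes the collagen-rich matrix around stromal cells and bone-forming cells.

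Library totals ran from 27440089 to 39251602 counts, and a count of 0 in a library allowed a level of up to 0.0749 to 0.113 CPM, counts scaled to library size, taken as 3 counts and covering counting error only. All 8 osteoblast lineage markers had counts in each group. They summed to 1550 to 3440 CPM in IFNγ-treated, 29700 to 44000 CPM in osteogenic and 3160 to 9300 CPM in untreated adipogenic libraries. Most of each sum was Col1a1, at 2262, 34387 and 6899 CPM in the means of these groups. Sp7 was at 0.134, 100 and 0.182 CPM, near the level that a count of 0 allows in both adipogenic groups. So was Dmp1 in the treated group, at 0.0955 CPM. Of 7 adipocyte lineage markers the summed level was 87.2 to 333 CPM, 37.1 to 77.9 CPM and 74.9 to 646 CPM in the same groups, and the mature fat cell genes Adipoq, Plin1 and Cd36 stood at or near 0 in all of them. The 5 smooth muscle and pericyte markers summed to 924 to 1480 CPM, 6360 to 16700 CPM and 1990 to 4320 CPM. These ranges did not overlap, and most of each sum was Acta2, at 959, 8322 and 2669 CPM in group means. The 5 cartilage markers summed to 53.3 to 84.1 CPM, 227 to 287 CPM and 35.8 to 217 CPM. The 8 bone marrow stroma markers summed to 710 to 1270 CPM, 1430 to 1880 CPM and 1160 to 4080 CPM. Both sums were lower in treated than in osteogenic libraries without overlap, but single markers went both ways. In treated and osteogenic group means, Cxcl12 was at 418 and 1216 CPM and Col2a1 at 20.7 and 138 CPM. Kitl (168 against 42.1 CPM), Vcam1 (130 against 52.9 CPM) and Sox9 (36.2 against 20.4 CPM) were higher in treated ones. The part of these markers in the results below was not tested. Markers of blood cells, which are a known source of several MMPs, were low. The 6 neutrophil markers found in the table summed to 0.118 to 2.11 CPM, 0.0752 to 0.302 CPM and 0.0998 to 0.171 CPM, and of the 5 macrophage and osteoclast markers found, Cd68 alone exceeded 1 CPM in a group mean. Of the 5 endothelial markers Kdr alone did so, and their sum was 22.2 to 54.4 CPM, 1.67 to 2.63 CPM and 9.22 to 17.8 CPM. In bulk RNA, fewer cells with a transcript and less of it per cell cannot be told apart.

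The RNA of this system was dominated by a few genes in every library. To compare genes, levels are given as RPKM, the CPM divided by the exonic length in kilobases. The highest means over the 9 libraries belonged to Timp2 (421.9 RPKM), Mmp14 (269.6), Timp1 (251.3), Mmp2 (248.1) and Timp3 (96.1). Timp2 had the highest mean and Timp3 the fifth in each group, while the order between them differed. Mmp2 averaged 91.4 RPKM in IFNγ-treated, 448 RPKM in osteogenic and 205 RPKM in untreated adipogenic libraries, Mmp14 178, 399 and 231 RPKM, and Timp1 190.0, 375 and 189 RPKM. Mmp14 codes for a membrane-anchored enzyme that cuts collagen and, with TIMP2 as a partner, activates pro-MMP2, and Mmp2 codes for gelatinase A. Next came Adamts1 (47.3 RPKM), which codes for a proteoglycan-cutting enzyme, Mmp23 (46.2), Mmp11 (42.3), which codes for stromelysin 3, Adamtsl4 (41.0) and Adamtsl3 (30.0). Together Mmp2 and Mmp14 made up 66.9 to 78.2% of the summed Mmp level in the IFNγ-treated libraries, 75.2 to 87.5% in the osteogenic ones and 69.2 to 83.4% in the untreated adipogenic ones.

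**Figure D1:**
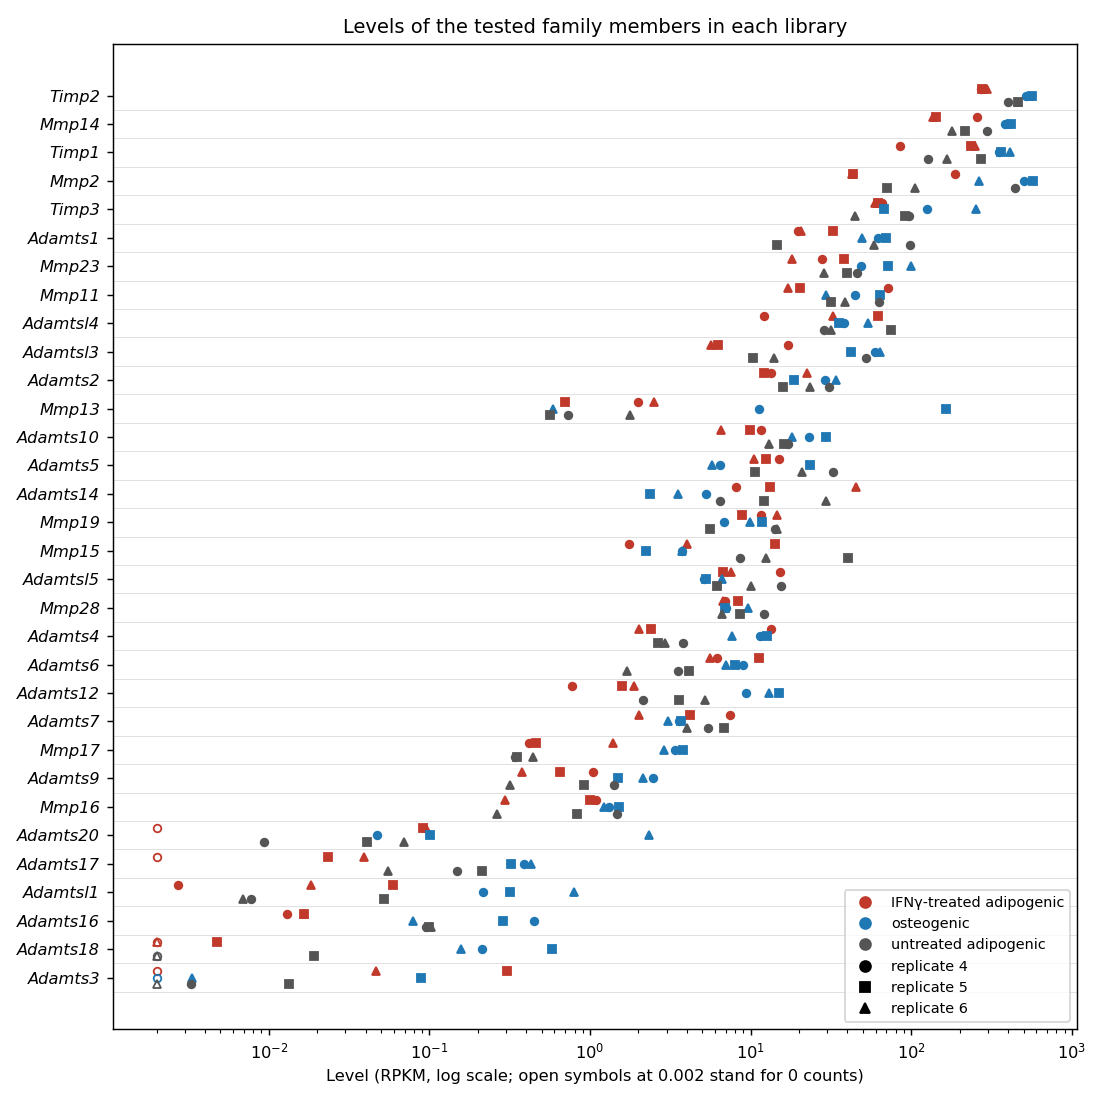
Level in RPKM on a log axis of the 32 members that passed the filter on low counts, ordered by their mean over all libraries. Colours give the group and shapes the replicate number, and open symbols at 0.002 RPKM stand for 0 counts. Timp2 points lie close together within each group, while those of Mmp13 spread widely among the osteogenic libraries.

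A filter on low counts left 32 of the 50 members for testing, namely 10 Mmp, 15 Adamts, 4 Adamtsl and 3 Timp genes. The other 18 never exceeded 1.02 CPM in a library, and 5 of them, Mmp1a, Mmp1b, Mmp7, Mmp8 and Mmp20, had 0 counts in all 9 libraries. Mmp9, the gene of gelatinase B, had 4, 0 and 2 counts in IFNγ-treated replicates 4, 5 and 6, against 3, 6 and 32 in the osteogenic libraries and 6, 1 and 24 in the untreated adipogenic ones. Mmp3, the gene of stromelysin 1, had 0, 1 and 9 counts, 0, 27 and 1 counts, and 0, 3 and 39 counts in the same order of groups. Timp4 had 4 counts in all. A filter that asks for counts in at least a group's worth of libraries keeps a gene that is high in 1 group only, so the tested members are not a sample of all members.

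Of the untested members, 9 are neighbours of Mmp13, the gene of collagenase 3, in a cluster of 10 MMP genes on chromosome 9. Over all libraries the 9 neighbours had 139 counts in total, while Mmp13 had 13510. The promoters of the cluster are shown because they differ in sequence from those of the other members in letters searched for as a motif of AP-1, the Fos and Jun transcription factors. The letters TGANTCA, which read the same on both strands, were found in 8 of the 10 cluster genes with a promoter in the RefSeq table (GRCm38.p6, 250 bases before to 50 bases after the start) and in 0 of 26 other members with one. Counted by promoter, they were in 8 of the 39 promoters of the members and in 7.81% of all 32851 promoters of that table. Mmp12 and Mmp7 each have a further promoter there without these letters. N stands for any base in all these counts, the share over all promoters included. In the matches below it was A for Mmp20 and C or G for the others. A match is a description of the letters and not a bound site. The windows below run 5′ to 3′ on the gene's strand with 12 bases on each side and with the match in capitals, in their order along the chromosome.
Mmp13, chr9:7272467-7272497, + strand: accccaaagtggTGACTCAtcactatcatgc
Mmp12, chr9:7347318-7347348, + strand: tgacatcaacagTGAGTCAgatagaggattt
Mmp1b, chr9:7388101-7388131, − strand: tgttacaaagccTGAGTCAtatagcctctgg
Mmp3, chr9:7445764-7445794, + strand: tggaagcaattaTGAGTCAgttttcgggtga
Mmp1a, chr9:7464056-7464086, + strand: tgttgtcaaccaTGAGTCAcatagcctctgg
Mmp10, chr9:7502267-7502297, + strand: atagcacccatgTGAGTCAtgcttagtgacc
Mmp20, chr9:7628124-7628154, + strand: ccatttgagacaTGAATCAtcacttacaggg
Mmp7, chr9:7692015-7692045, + strand: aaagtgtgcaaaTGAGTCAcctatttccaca

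Mmp13 stood at 5.32, 1.86 and 6.64 CPM in IFNγ-treated replicates 4, 5 and 6, at 30.0, 438.9 and 1.58 CPM in the osteogenic libraries, and at 1.94, 1.51 and 4.77 CPM in the untreated adipogenic ones. Osteogenic replicate 5 was far above all other libraries, and osteogenic replicate 6 lay within the adipogenic range. The log2 fold change of osteogenic over untreated adipogenic was 5.83 ± 1.74 and did not pass edgeR's quasi-likelihood test (adjusted p = 0.0967), although DESeq2 called it (adjusted p = 0.0011). Without osteogenic replicate 5 it was 2.53 (adjusted p = 0.288), against 5.54 to 6.50 in the other fits with a library left out. Within its promoter the search also found an ISRE core, the interferon-response letters on either strand (GAAA, any 2 bases, GAAA), which is in 3.44% of all promoters. It also found a pair of PEA3 letters AGGAAG on the strand shown. At least 1 PEA3 match on either strand is in 35.35% of all promoters, and the share with a pair was not counted. The PEA3 letters lie 109 and 62 bases and the AP-1 letters 35 bases before the start. No other member with a promoter in the RefSeq table held the ISRE core, and 14 members had no promoter there to search. All these matches are in capitals in the Mmp13 promoter, chr9:7272264-7272563, + strand.
Mmp13: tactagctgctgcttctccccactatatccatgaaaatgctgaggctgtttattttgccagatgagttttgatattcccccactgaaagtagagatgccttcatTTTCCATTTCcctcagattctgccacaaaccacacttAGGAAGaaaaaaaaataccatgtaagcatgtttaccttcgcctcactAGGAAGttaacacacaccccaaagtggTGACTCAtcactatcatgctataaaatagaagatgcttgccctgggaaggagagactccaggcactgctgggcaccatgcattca

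Adipogenic libraries of different numbers differed in these genes with and without IFNγ, as they did across all genes. Of 30 tested members with counts in every untreated library, 19 differed by more than 2-fold between the highest and the lowest untreated adipogenic library, and 9 by more than 4-fold, against 27.6% and 10.4% of all 14955 such genes. The same number was highest with and without IFNγ for 25 of 32 members (78.1%), against 67.5% of all genes tested, and no test was made of these shares. Mmp2 was highest in number 4, at 569.8, 132 and 131 CPM in IFNγ-treated replicates 4, 5 and 6, against 1333, 215 and 319 CPM in untreated ones. Mmp15, which codes for another membrane-type enzyme, was highest in number 5, at 7.57, 61.2 and 17.5 CPM in treated against 37.3, 176 and 54.4 CPM in untreated libraries. Adamts14, which codes for an enzyme that trims procollagen and was picked after its values were seen, was highest in number 6, at 42.1, 68.7 and 234.6 CPM in treated against 33.5, 63.0 and 152.7 CPM in untreated libraries. Adamtsl4, at 50.7, 259 and 137 CPM in treated and 119.8, 315 and 133 CPM in untreated libraries, was highest in number 5.

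**Figure D2:**
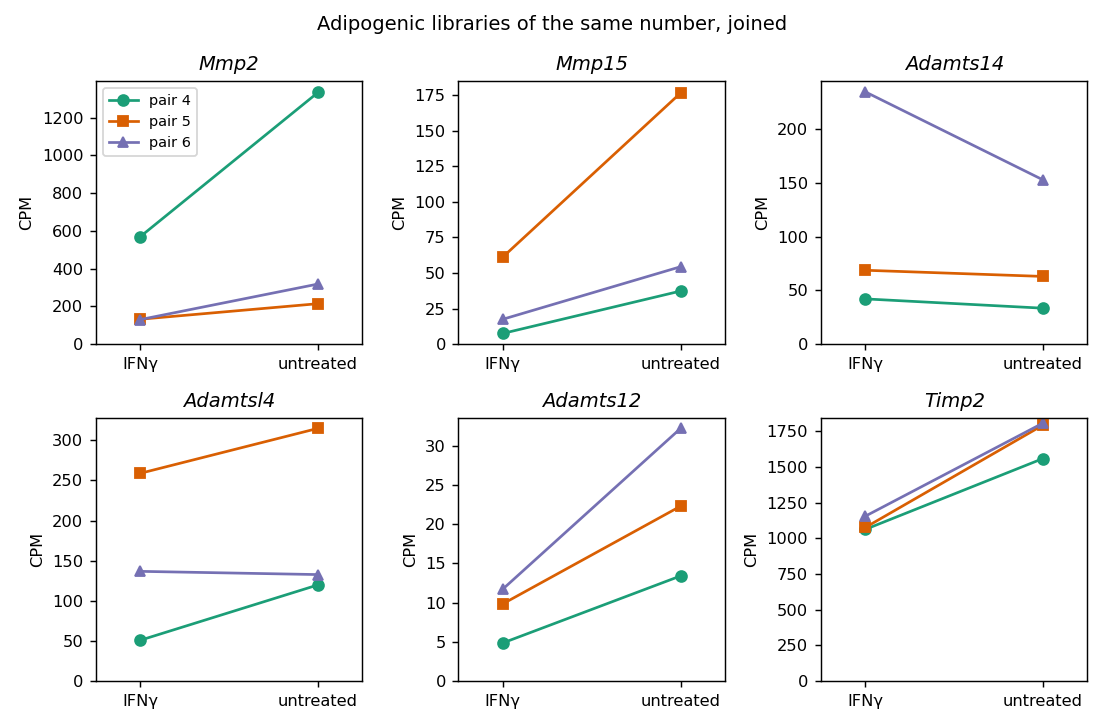
CPM of 6 members in IFNγ-treated (left of each panel) and untreated (right) adipogenic libraries, joined by number, each axis starting at 0. The number with the highest level differs between Mmp2, Mmp15 and Adamts14, while the 3 joined Timp2 pairs lie close together and all run lower in the treated libraries.

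IFNγ-treated adipogenic libraries were first set against untreated ones. No member passed edgeR's quasi-likelihood test without pairing (0 of 32 tested, against 2.26% of all genes, 2.01% higher and 0.245% lower). At an unadjusted p under 0.05 there were 6 members, and the calls numbered 5 with DESeq2 and 1 with limma-voom. Since same-numbered adipogenic libraries deviated together across all genes, the change was also tested within the numbers, with the number as a block in edgeR. Then 8 of 29 members tested passed, with 7 lower and 1 higher, against 16.6% of all genes, 8.02% lower and 8.61% higher. The 7 were Mmp2, Mmp15, Adamts10, Adamts12, Adamts16, Adamtsl3 and Timp2, and the member that rose was Adamts6. The median log2 fold change without pairing was −0.33 for the members and −0.02 for all genes tested.

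Among the metalloproteinases, Mmp2 and Mmp15 fell within the pairs. The log2 ratio of treated over untreated Mmp2 was −1.23, −0.70 and −1.29 in pairs 4, 5 and 6, and the paired fit gave −1.09 ± 0.15 (adjusted p = 0.0122). Without pairing it was −1.17 ± 0.82 (adjusted p = 0.606), and with the number of the adipogenic libraries as a block in a fit of all 9 libraries, added after the data were seen, it did not pass (adjusted p = 0.0693). Mmp15 had log2 ratios of −2.29, −1.52 and −1.63, and the paired fit gave −1.82 ± 0.18 (adjusted p = 0.0059). Mmp14 was at 663, 369 and 357 CPM in treated and 773, 564 and 466 CPM in untreated libraries, lower in each pair, and did not pass in the paired fit (−0.42 ± 0.12, adjusted p = 0.0652). Mmp11 at −0.56 ± 0.26 and Mmp13 at 0.74 ± 0.27 did not pass with pairing (adjusted p = 0.202 and 0.122).

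Among the inhibitors, Timp2 stood at 1063, 1076 and 1155 CPM in IFNγ-treated libraries, against 1560, 1794 and 1809 CPM in untreated ones. The groups did not overlap, as for 5 members lower and 1 higher in all (7.17% and 10.2% of all genes, 17.4% together), and the spread within each group was small. The log2 fold change was −0.65 ± 0.14 without pairing (adjusted p = 0.0564) and −0.66 ± 0.11 with pairing (adjusted p = 0.0205), and limma-voom, DESeq2 and upper-quartile scaling also called it. Timp1 stood at 76.0, 209 and 221 CPM in treated and 112, 242.7 and 148 CPM in untreated libraries, and Timp3 at 531, 508 and 481 CPM against 785, 739.5 and 363 CPM. Neither passed, and their paired log2 fold changes were −0.08 ± 0.24 and −0.25 ± 0.23. The Timp2 promoter, chr11:118355362-118355661 on the − strand, is shown as that of the inhibitor called with pairing, and it held none of the AP-1, ISRE core and PEA3 letters, so it has no capitals.
Timp2: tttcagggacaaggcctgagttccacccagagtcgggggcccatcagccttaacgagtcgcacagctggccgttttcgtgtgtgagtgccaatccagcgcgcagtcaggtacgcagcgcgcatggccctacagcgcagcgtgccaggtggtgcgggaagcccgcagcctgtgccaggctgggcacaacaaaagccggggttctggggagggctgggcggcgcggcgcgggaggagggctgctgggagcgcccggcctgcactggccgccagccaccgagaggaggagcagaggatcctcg

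Among the ADAMTS genes, Adamts12, which codes for an enzyme that can cut the cartilage protein COMP, stood at 4.85, 9.84 and 11.7 CPM in treated and 13.4, 22.3 and 32.2 CPM in untreated libraries. It was lower by a similar factor in each pair (log2 ratios −1.45, −1.17 and −1.45), and the paired fit gave −1.38 ± 0.12 (adjusted p = 0.00454). Adamts10, which codes for a protease that interacts with fibrillin, stood at 46.8, 39.5 and 26.2 CPM against 68.5, 64.4 and 52.6 CPM, with −0.77 ± 0.11 (adjusted p = 0.0131). Adamts16 had only 3, 4 and 4 counts in treated and 23, 24 and 28 counts in untreated libraries, with −2.66 ± 0.36 (adjusted p = 0.0116). Adamtsl3 stood at 73.1, 26.8 and 24.2 CPM against 222.6, 43.9 and 59.9 CPM, with −1.23 ± 0.19 (adjusted p = 0.0166). Adamts6 went the other way, at 31.0, 56.2 and 28.2 CPM in treated and 17.7, 20.7 and 8.51 CPM in untreated libraries, with 1.31 ± 0.20 (adjusted p = 0.0155). With that block in all 9 libraries, Adamts12, Adamts6, Adamtsl3, Mmp15 and Timp2 passed, while Adamts10 (adjusted p = 0.0514) and Adamts16 (0.067) did not.

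The proteoglycan-cutting ADAMTS genes were not called with or without pairing. Adamts1 stood at 104, 172 and 109 CPM in treated and 523, 77.6 and 309 CPM in untreated libraries, so that pairs 4 and 6 were lower and pair 5 was higher. Adamts4, an aggrecanase gene, stood at 64.4, 11.6 and 9.74 CPM against 18.2, 12.7 and 14.0 CPM, with treated replicate 4 above the rest. Adamts5, the other main aggrecanase gene, stood at 121.8, 101 and 84.7 CPM against 264, 85.6 and 168 CPM. Adamts2, which codes for the main procollagen I N-proteinase, stood at 124, 112 and 208 CPM against 287, 149 and 218 CPM and was lower in each pair, with −0.57 ± 0.24 in the paired fit (adjusted p = 0.165). In all, 11 of the 32 tested members were lower and 4 higher in all 3 pairs, against 29.7% and 26.9% of all genes.

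**Figure D3:**
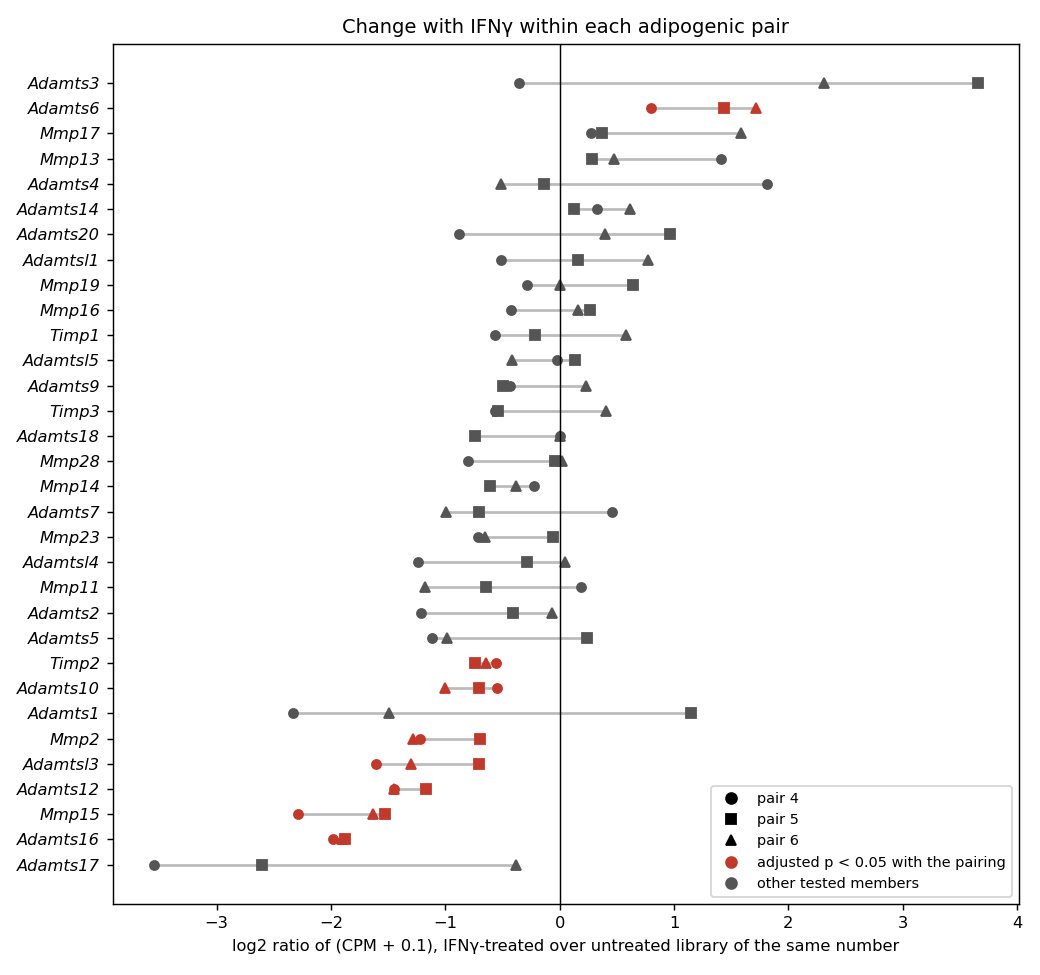
log2 ratio of (CPM + 0.1) of the IFNγ-treated over the untreated library of the same number, for the 32 tested members. Shapes give the pair, grey bars span the 3 pairs, and red marks the members with an adjusted p under 0.05 in the paired fit. The 3 points of Timp2, Adamts12 and Adamts10 lie close together left of 0, while those of Adamts1 lie on both sides.

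The next comparison set osteogenic against untreated adipogenic progenitors, which share their untreated libraries with the comparison above. Mmp17, Adamts12 and Adamts18 rose in osteogenic progenitors and no member fell. These 3 of 32 tested members stand against 5.17% of all genes, 1.98% called higher and 3.19% called lower. For the call of 0 lower members, DESeq2 called 2 (Adamts14 and Mmp15) and limma-voom 0, and 15 members in both directions had an unadjusted p under 0.05. The median log2 fold change was 0.94 for the members and −0.02 for all genes. The libraries of the groups did not overlap for 13 members higher and 3 lower in osteogenic progenitors, against 15% and 15.9% of all genes, 31% together. The 13 include Adamts18 and Adamtsl1, which passed the filter on low counts through the osteogenic libraries alone and could be counted in this direction only.

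Mmp17, which codes for an enzyme held at the membrane by a lipid anchor, stood at 11.8, 13.1 and 10.0 CPM in osteogenic libraries, against 1.18, 1.22 and 1.55 CPM in untreated adipogenic ones. Its log2 fold change was 3.14 ± 0.49 (adjusted p = 0.0137), and the call was lost without untreated adipogenic replicate 6 (adjusted p = 0.0522) or osteogenic replicate 4 (0.056). Adamts12 stood at 58.5, 93.4 and 81.4 CPM against 13.4, 22.3 and 32.2 CPM, with 1.78 ± 0.40 (adjusted p = 0.0453), a call lost whichever of the 6 libraries was left out (adjusted p of 0.0692 to 0.14). Adamts18 had 42, 92 and 33 counts against 0, 4 and 0 counts (adjusted p = 0.0372), and lost its call in 5 of 6 such fits, all but that without untreated adipogenic replicate 5 (adjusted p up to 0.113). It passed the filter on low counts through the osteogenic libraries alone, so it could be called in this direction only. Its fitted log2 fold change over a group near 0 was 5.54 ± 1.17, and 9.02 without untreated adipogenic replicate 5. The promoter of Adamts12, chr15:11064523-11064822 on the + strand, is shown as that of the member called here, against IFNγ-treated libraries, and with pairing in the comparison above, and capitals mark the PEA3 letters on both strands.
Adamts12: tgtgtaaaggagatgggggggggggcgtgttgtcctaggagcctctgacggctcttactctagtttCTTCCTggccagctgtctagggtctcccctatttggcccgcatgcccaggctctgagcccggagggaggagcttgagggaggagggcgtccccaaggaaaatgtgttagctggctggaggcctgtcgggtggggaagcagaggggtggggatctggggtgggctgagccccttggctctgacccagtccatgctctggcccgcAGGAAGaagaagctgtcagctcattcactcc

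Several abundant members were higher in every osteogenic library without passing the test. Mmp14 stood at 994, 1084 and 1033 CPM in osteogenic and 773, 564 and 466 CPM in untreated adipogenic libraries (0.79 ± 0.28, adjusted p = 0.142). Timp1 stood at 311, 322 and 366 CPM against 112, 242.7 and 148 CPM (0.99 ± 0.41, adjusted p = 0.198), and Timp2 at 2029.7, 2204 and 2102 CPM against 1560, 1794 and 1809 CPM (0.30 ± 0.14, adjusted p = 0.24). Mmp23 stood at 113, 166 and 232 CPM against 107, 92.5 and 66.6 CPM (0.94 ± 0.34, adjusted p = 0.147). Adamts4 stood at 54.6, 60.6 and 36.9 CPM against 18.2, 12.7 and 14.0 CPM (1.76 ± 0.68, adjusted p = 0.168). DESeq2 called Mmp14, Timp2 and Adamts4 among its 9 higher members. Adamts6 was also higher in each osteogenic library, at 44.9, 39.8 and 35.4 CPM (1.35 ± 0.37, adjusted p = 0.0753).

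Mmp2 stood at 1536, 1745 and 803 CPM in osteogenic and 1333, 215 and 319 CPM in untreated adipogenic libraries. Untreated replicate 4 lay within the osteogenic range, so the groups overlapped (1.13 ± 0.82, adjusted p = 0.444). Timp3 overlapped as well, at 1017, 551 and 2065 CPM against 785, 739.5 and 363 CPM (adjusted p = 0.265). Mmp15 and Adamts14 lay lower in each osteogenic library. Mmp15 stood at 16.3, 9.74 and 16.2 CPM against 37.3, 176 and 54.4 CPM (−2.66 ± 0.84, adjusted p = 0.112), and Adamts14 at 27.2, 12.3 and 18.2 CPM against 33.5, 63.0 and 152.7 CPM (−2.11 ± 0.76, adjusted p = 0.145). Adamts1, Adamts2, Mmp11 and Adamtsl4 had log2 fold changes of 0.08 ± 0.56, 0.22 ± 0.34, 0.04 ± 0.57 and −0.08 ± 0.57, and SEs of this size do not show that the groups were alike.

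**Figure D4:**
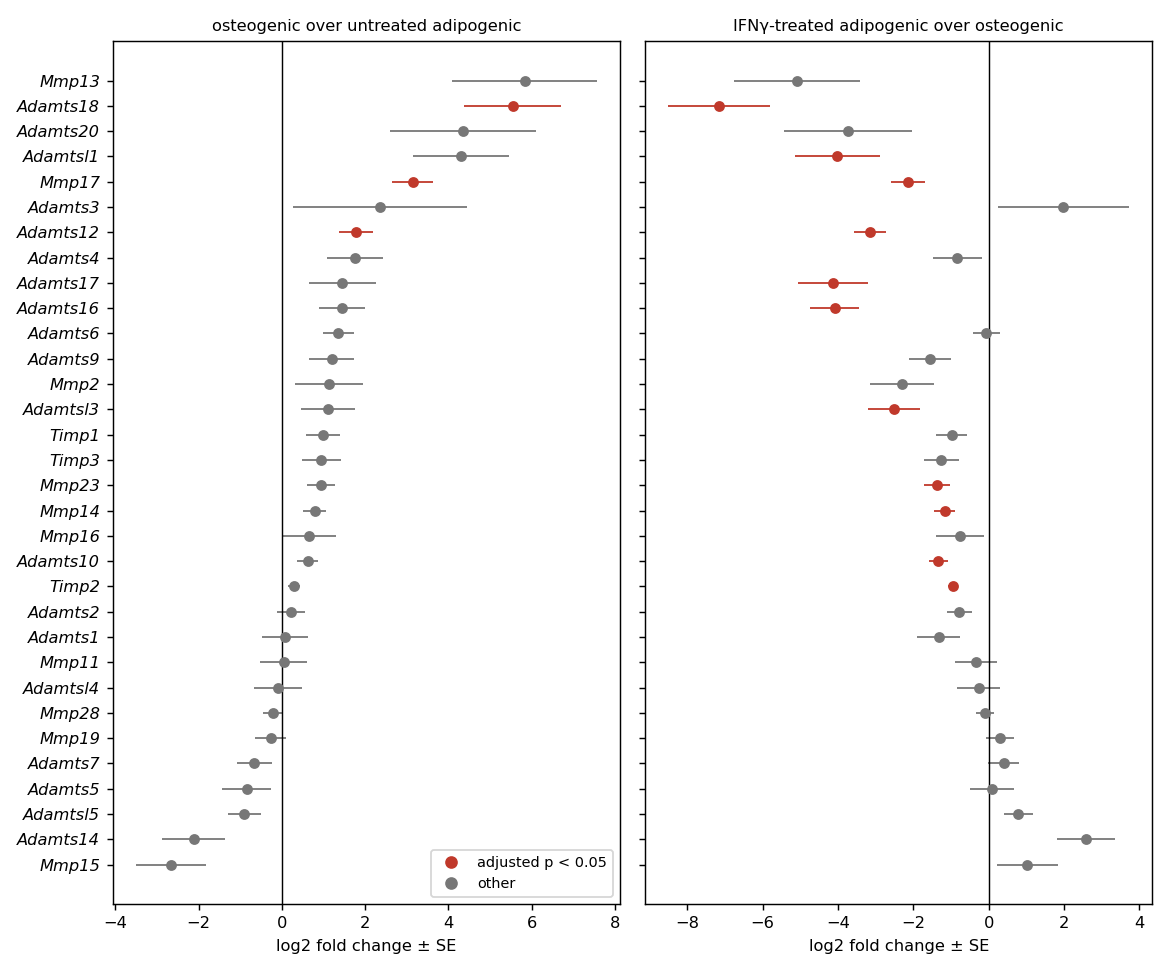
log2 fold change ± SE from edgeR's fit of all 9 libraries for the 32 tested members, osteogenic over untreated adipogenic on the left and IFNγ-treated adipogenic over osteogenic on the right. Red marks an adjusted p under 0.05, which 3 members reached on the left, all positive, and 11 on the right, all negative.

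The last comparison set IFNγ-treated adipogenic against osteogenic progenitors, each of which is also part of a comparison above, so the values are not independent of them. In it 11 of 32 tested members fell and 0 rose, against 16.7% of all genes, 7.52% called lower and 9.2% called higher. For the call of 0 higher members, DESeq2 called 1 (Adamts14) and limma-voom 0, and 19 members in both directions had an unadjusted p under 0.05. The 11 include Adamts18 and Adamtsl1, which passed the filter through the osteogenic libraries alone and could be called in this direction only. In full they were Mmp14, Mmp17, Mmp23, Adamts10, Adamts12, Adamts16, Adamts17, Adamts18, Adamtsl1, Adamtsl3 and Timp2. The median log2 fold change was −1.07 for the members and 0.03 for all genes tested.

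Timp2, at 1063, 1076 and 1155 CPM in IFNγ-treated and 2029.7, 2204 and 2102 CPM in osteogenic libraries, fell by 0.94 ± 0.14 on the log2 scale (adjusted p = 0.00359). Adamts12, at 4.85, 9.84 and 11.7 CPM against 58.5, 93.4 and 81.4 CPM, fell by 3.14 ± 0.43 (adjusted p = 0.00273). Adamts10, at 46.8, 39.5 and 26.2 CPM against 93.3, 119 and 73.1 CPM, fell by 1.34 ± 0.25 (adjusted p = 0.0106). Adamts16 had 3, 4 and 4 counts against 101, 52 and 19 counts (adjusted p = 0.00477), and Adamts18 had 0, 1 and 0 counts against 42, 92 and 33 counts (adjusted p = 0.0106). These 5 calls held whichever of the 6 libraries was omitted, and the adjusted p then reached 0.0196, 0.0126, 0.0387, 0.024 and 0.0478 in the order given. For Adamts18, whose treated libraries held 1 count in all, the fitted fold change is not given.

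The other 6 calls were each lost in 2 to 5 of the 6 fits with a library left out. Such fits also called fewer of all genes, 1312 to 1979 against 2525 in the main fit. Mmp14, at 663, 369 and 357 CPM in treated and 994, 1084 and 1033 CPM in osteogenic libraries, fell by 1.16 ± 0.28 (adjusted p = 0.0271) and lost its call in 5 of 6 fits, all but that without IFNγ-treated replicate 4 (adjusted p up to 0.0805). Mmp17, at 1.45, 1.61 and 4.85 CPM against 11.8, 13.1 and 10.0 CPM, fell by 2.14 ± 0.46 (adjusted p = 0.0181), and lost its call without osteogenic replicate 4 (0.053) or 5 (0.0583). Mmp23, at 65.4, 88.5 and 42.2 CPM against 113, 166 and 232 CPM, fell by 1.38 ± 0.34 (adjusted p = 0.0296), with the call lost without IFNγ-treated replicate 4 or 6 or osteogenic replicate 5 or 6 (up to 0.0942). Adamtsl3, at 73.1, 26.8 and 24.2 CPM against 252.9, 179 and 272.5 CPM, fell by 2.51 ± 0.69 (adjusted p = 0.0411), and lost its call in all fits but that without IFNγ-treated replicate 4 (up to 0.122). Adamtsl1 had 1, 23 and 7 counts against 77, 91 and 306 counts (−4.02 ± 1.13, adjusted p = 0.0451), and lost its call in all fits but that without IFNγ-treated replicate 5 (up to 0.139). Adamts17 had 0, 6 and 10 counts against 93, 62 and 109 counts (−4.14 ± 0.93, adjusted p = 0.0206), and lost its call without IFNγ-treated replicate 5 or any osteogenic replicate (up to 0.0587).

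Mmp2, at 569.8, 132 and 131 CPM in IFNγ-treated and 1536, 1745 and 803 CPM in osteogenic libraries, did not overlap between the groups and did not pass (−2.29 ± 0.85, adjusted p = 0.103). Timp1 and Timp3 did not overlap either, with −0.98 ± 0.41 (adjusted p = 0.145) and −1.26 ± 0.47 (adjusted p = 0.106). Absence of overlap in the lower direction held for 17 of 32 members and for 18.8% of all genes, and in the higher direction for 2 members and 19.7% of all genes (38.5% in both). The 17 include Adamts18 and Adamtsl1, which through the filter could be counted in the lower direction only. Adamts14 was higher in each treated library, at 42.1, 68.7 and 234.6 CPM against 27.2, 12.3 and 18.2 CPM (2.58 ± 0.77, adjusted p = 0.0549). Adamts6 and Adamts5 had log2 fold changes near 0, of −0.06 ± 0.36 and 0.09 ± 0.59.

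The Mmp and Timp transcripts were also summed in each library. The summed Mmp level was 567, 277 and 245 RPKM in IFNγ-treated replicates 4, 5 and 6, 1015, 1318 and 819 RPKM in the osteogenic libraries, and 883, 416 and 388 RPKM in the untreated adipogenic ones. The summed Timp level was 424, 574 and 605 RPKM in treated, 996, 996 and 1205 RPKM in osteogenic, and 623, 825 and 675 RPKM in untreated libraries. The ratio of the sums was 1.34, 0.48 and 0.41 in treated, 1.02, 1.32 and 0.68 in osteogenic and 1.42, 0.50 and 0.58 in untreated libraries. It was 0.74 ± 0.52, 1.01 ± 0.32 and 0.83 ± 0.51 in these groups (SD, n = 3 each), and the adipogenic libraries numbered 4 stood apart from those numbered 5 and 6 with or without IFNγ. These sums describe RNA, and no test was made on them.

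**Figure D5:**
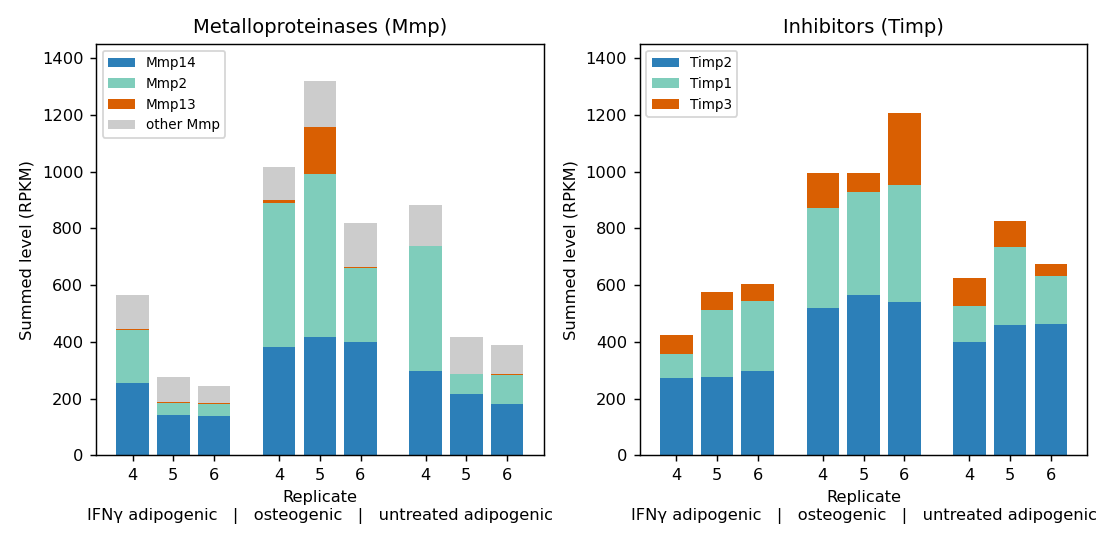
Summed level in RPKM of the Mmp genes (left) and the Timp genes (right) in each library, with stacked colours for the most abundant members. Mmp13 is visible as a separate layer in osteogenic replicate 5, where it made up 12.4% of the summed Mmp level.

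Genes that switch this system on or off were read from lists. Of 10 tested genes for activating proteases and their inhibitors, none passed with IFNγ without pairing, and with pairing 5 fell and 1 rose, against 8.02% and 8.61% of all genes. Plau, the gene of urokinase, was at 40.6 and 70.5 CPM in treated and untreated group means (adjusted p = 0.109, with pairing 0.00821), and Plat, the gene of tissue plasminogen activator, at 19.5 and 38.4 CPM (0.0657, with pairing 0.0176). Furin, which codes for a convertase that activates membrane-type enzymes, was at 226 and 166 CPM (0.537, with pairing 0.031) and was the gene that rose. Reck, which codes for a membrane-anchored inhibitor, was at 7.47 and 11.5 CPM (0.283, with pairing 0.0298). Against osteogenic progenitors, 4 of the 10 activator genes fell in treated adipogenic ones (7.52% of all genes), among them Plau (adjusted p = 0.00607) and Plat (0.00192).

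Of 19 tested genes of matrix proteins that these enzymes cut, 3 rose in osteogenic over untreated adipogenic progenitors, namely Col1a1, Col1a2 and Bcan, and 0 fell, against 1.98% and 3.19% of all genes. In IFNγ-treated adipogenic over osteogenic progenitors 9 fell and 0 rose, against 7.52% and 9.2% of all genes. With IFNγ in adipogenic progenitors 0 passed without pairing and 5 fell with it, against 8.02% of all genes. Fn1, the gene of fibronectin, was at 5207 CPM in treated, 15239 CPM in osteogenic and 10171 CPM in untreated group means. Acan, the gene of the aggrecanase substrate aggrecan, had 0 counts in both adipogenic groups. Of 14 transcription factor genes known to act on MMP genes, Fos was at 3.77 CPM in treated and 37.5 CPM in untreated group means and fell (adjusted p = 0.0447). Runx2, which codes for a factor of bone-forming cells that acts on Mmp13, was at 142 CPM in osteogenic and 62.4 CPM in untreated group means and rose (adjusted p = 0.0328). Jun, at 176 CPM in treated and 139 CPM in untreated libraries, did not pass (adjusted p = 0.779).

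Reads of some members may include those of a neighbour, since the strand setting of the counting is not given. In GENCODE M21, exons of Mmp19 share 789 bases with Tmem198b on the opposite strand, which had 11889 counts against 11551 for Mmp19. Exons of Adamts7 share 122 bases with Tbc1d2b. Timp3 lies across Syn3, with 1733 shared exonic bases, but Syn3 had 129 counts and Timp3 242785.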

How the data were processed

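The authors deposited a table of raw read counts per Ensembl gene, whole numbers in 1 column per library, with the exonic length of each gene. Per the labels' protocols, libraries came from poly(A) RNA with a directional kit and were sequenced as single reads. Per the submitters' processing notes, CASAVA 1.8.0, bedtools 2.11 and mm9 were used. Not given in the sources used here are the aligner, the counter and whether it used strand. Members were taken by name, and no name had several identifiers. The members and lists were chosen with earlier results of these data known.

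Library totals were 27440089 to 39251602 counts. From the deposited counts, genes were kept with filterByExpr (15098 of 24186), scaled with TMM and fitted with edgeR 4.0.16 in R 4.3.3 by a quasi-likelihood model with robust estimation, with a term for the group, over all 9 libraries. F tests were two-sided, with Benjamini-Hochberg adjustment over all genes at 0.05, and the SE is the log2 fold change over the square root of F. DESeq2 1.42.0, limma-voom (limma 3.58.1), other scalings and filters, 6-library fits, a replicate block and fits with 1 library left out were alternatives. No label says whether replicates are separate animals; p-values then measure only the spread between these samples, and an exact permutation test of 3 against 3 cannot go below 0.1. The fit was tested on simulated data. No pair of libraries in a group agreed within sampling noise.

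Same-numbered treated and untreated adipogenic libraries correlated at 0.778, 0.769 and 0.779 in their deviations from the group means, which is taken as a pairing from the data. The paired fit is that of the 6 adipogenic libraries. Osteogenic libraries did not pair with same-numbered untreated (−0.0546 to −0.0269) or treated ones (−0.0178 to 0.0552).

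Named are members called with or without the block whose higher group averaged 1 CPM or more, 14 members fixed by name, and the 10 with the highest mean RPKM. Adamts3, Adamts7, Adamts9, Adamts20, Mmp16, Mmp19, Mmp28 and Adamtsl5 are shown in the figures. The promoter sequences are RefSeq's (GRCm38.p6), found for 36 of the 50 members. Some genes of the lists are not reported here.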

Additional observations from a re-analysis of the deposited data

How the results depend on the processing

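Between IFNγ-treated and untreated adipogenic libraries, 0 members were called in the main fit. Of members higher there was 1 with DESeq2, 1 with the replicate block in 6 libraries and 1 with the number of the adipogenic libraries as a block in 9 libraries, an alternative added after the data were seen. Of members lower there was 1 with upper-quartile scaling, 4 with DESeq2, 1 with limma-voom, 1 in the 6 libraries alone, 7 and 4 with those blocks, and 1 with the replicate block in 9 libraries. The 341 genes called overall became 1068 with DESeq2, 178 in the 6 libraries alone, 2446 with the replicate block in 6 libraries, 1631 with the adipogenic number block and 194 to 278 with a library left out. Between osteogenic and untreated adipogenic libraries, the 3 higher members became 9 with DESeq2, 0 and 5 with the replicate block in 6 and 9 libraries, and 0 to 2 with a library left out, while 0 lower members became 2 with DESeq2. The 780 genes called became 2226 with DESeq2, 23 and 1244 with those blocks, and 159 to 475 with a library left out. Between IFNγ-treated and osteogenic libraries, the 11 lower members became 15 with DESeq2, 13 in the 6 libraries alone, 14 and 7 with the replicate block in 9 and 6 libraries, and 5 to 11 with a library left out, and 0 higher members became 1 with DESeq2 and 0 to 1 with a library left out. The 2525 genes called became 3830 with DESeq2, 1257 with that block and 1312 to 1979 with a library left out. Since osteogenic numbers did not pair, a call lost under their block is not read as a smaller difference, and the cause of these shifts was not tested.

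Timp1 changed sign with IFNγ, at −0.036 with upper-quartile scaling, −0.068 with limma-voom, −0.081 and −0.042 with the replicate block in 6 and 9 libraries, −0.067 with the adipogenic number block, and −0.21 to 0.38 with a library left out. With a library left out, the IFNγ log2 fold change also crossed 0 for Adamts18 (−3.48 to 1.86), Adamts4 (−0.47 to 1.33), Adamtsl1 (−1.06 to 1.84), Adamtsl4 (−1.03 to 0.24), Mmp11 (−1.24 to 0.038) and Mmp2 (−2.23 to 0.047, its upper end without untreated replicate 4). Osteogenic over untreated adipogenic, Adamtsl4 was 0.033 with limma-voom, 0.044 and 0.13 with the blocks in 6 and 9 libraries, and −0.33 to 0.50 with a library left out, where Adamts1 (−0.38 to 0.73) and Mmp11 (−0.27 to 0.38) crossed 0 too. IFNγ-treated over osteogenic, Adamts5 (−0.24 to 1.06), Adamts6 (−0.45 to 0.14), Adamtsl4 (−0.94 to 0.17) and Mmp15 (−0.18 to 1.51) did so. None of these was called in the main fit. With 3 libraries a group and a common biological coefficient of variation of 0.378, a change of a member that was not called is not shown to be absent.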

Other observations

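Adamts20, which is not among the members named by rule and was picked after its values were seen, stood at 0, 0.818 and 0.852 CPM in IFNγ-treated replicates 4, 5 and 6, at 0.423, 0.903 and 20.9 CPM in the osteogenic libraries, and at 0.0845, 0.370 and 0.624 CPM in the untreated adipogenic ones. Osteogenic replicate 6 alone was high, whereas Mmp13 was highest in osteogenic replicate 5.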
